A study of Mus musculus with 30 samples.

Results

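The 67 protein-coding genes of the canonical core histones H2A, H2B, H3 and H4 and of the linker histone H1 were located against the replication initiation zones of wild-type mouse embryonic stem cells. They were chosen by gene symbol (H1f, H2ac, H2bc, H3c or H4c followed by a number) on chromosomes 1 to 19 of mm10, out of 20558 protein-coding genes there. The choice of this group was made with earlier distances of these genes to the zones known, so its distances are given as a description, with no test. The symbols matched 68 genes, of which 1, H2ac14, is annotated as a pseudogene and was left out. Chromosome 13 held 53 members and chromosome 3 held 10. The other 4, H1f0, H1f7, H1f8 and H1f10, lay apart from these clusters on chromosomes 6 and 15. Chromosome 11, whose histone cluster was also to be described, held 0 genes with such a symbol. The histone genes that lie together there are named H2aw, H2bu2 and H3f4 in the annotation and are given with the variant genes below.

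The zones came from OK-seq, which sequences Okazaki fragments by strand and so shows where leftward and rightward replication forks part. The library was made from the mouse ES cell line E14TG2a, wild type for Mcm2, grown with LIF, the GSK3 inhibitor CHIR99021 and the MEK inhibitor PD0325901, and labelled with 10 µM EdU for 2 min. It was the 1 sample analysed of the 30 in the series. The SCAR-seq samples, which follow old and new histones onto the sister chromatids in wild-type and MCM2-2A cells, were not analysed here. The list held 2844 zones, each with a left edge, a right edge and a breakpoint bin of 1 kb between them. It carries no read counts, so the depth is unknown, and with 1 library there is no replicate error.

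Canonical histone genes supply the histones that package newly made DNA. They are transcribed mainly in S phase, most lack introns, and their messages end in a stem-loop bound by SLBP instead of a poly(A) tail. Most of them are gathered in clusters, where many copies encode the same or nearly the same protein. Transcription of the clusters depends on NPAT, a substrate of cyclin E and CDK2, in nuclear foci called histone locus bodies. Replacement variants such as H3.3 and H2A.Z are made from single genes with introns throughout the cell cycle.

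Few histone genes reached into an initiation zone. An end of the gene lay inside a zone for 6 of 67 members (8.96%, Wilson 95% interval 4.17 to 18.2%), against 32.4% of all protein-coding genes. Within 5 kb of a zone there were 7 members (10.4%), against 34.2% of all genes, and within 20 kb there were 13 (19.4%, 11.7 to 30.4%), against 38.5%. At 50 kb the shares lay closer, with 27 members (40.3%) against 45.4% of all genes. Beyond 100 kb from any zone they were near each other, with 29 members (43.3%) against 44.1%. Members of a cluster share their surroundings and are not independent, and the intervals cover counting error only. When each cluster block (defined below) or single gene was counted once, by its nearest gene, 3 of 8 locations (37.5%) lay within 20 kb of a zone. A block of many genes counts as near through any of them, so this share is not comparable with that of all genes. The median distances to a zone edge were 94.4, 21.0 and 33.6 kb in the blocks of chromosome 13 and 121 kb in that of chromosome 3, all over 20 kb.

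Histone genes are short, with a median length of 0.496 kb against 17.6 kb for all protein-coding genes, and a gene counted as near when either of its ends was. With the midpoint of the gene in place of its ends, the share inside a zone was again 8.96% for histone genes and 22.5% for all genes. Within 20 kb it was 19.4% and 29.9%.

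The distances of the histone genes to breakpoints spread less than those of all genes, but most of these genes share a few locations. From the nearer gene end to the nearest breakpoint the histone genes had a median of 130.0 kb, with quartiles of 107 and 199 kb. All protein-coding genes had nearly the same median of 129 kb, but quartiles of 38.4 and 303 kb. The lowest value among the members was 27.0 kb, in H1f0, and the highest 255 kb, in H1f2. Within 50 kb of a breakpoint lay 1 member (1.49%), against 29.1% of all genes. A breakpoint inside the gene body occurred in 0 of 67 members (Wilson interval up to 5.42%), against 4.02% of all genes. In a range chosen after the values were seen, 50 to 260 kb from a breakpoint, lay 66 members (98.5%) and 41.5% of all genes. Farther away were 29.3% of all genes and no histone gene. The range was drawn around the members, so their share in it was set in advance. Of the 67 genes, 63 lie in cluster blocks and share their surroundings, so the narrow spread is not that of independent genes.

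**Figure D1:**
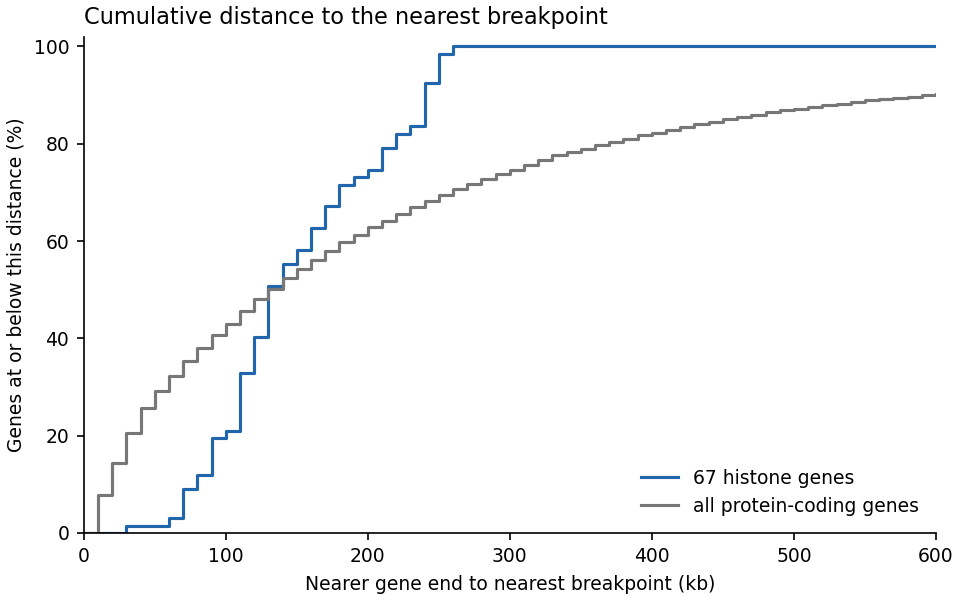
Share of genes (%, y axis) whose nearer end lies at or below a given distance (kb, x axis, in steps of 10 kb) from the nearest breakpoint, for the 67 histone genes (blue) and the 20558 protein-coding genes of chromosomes 1 to 19 (grey). The curves cross near their medians of 130.0 and 129 kb, and the histone curve is flat below 27.0 kb and reaches 100% by 260 kb.

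Blocks were defined as runs of members with no more than 200 kb between neighbours, which gave 3 on chromosome 13 and 1 on chromosome 3. Of these 4 blocks, 3 lay wholly outside the zones and 1 was entered by a zone at its left end. Together the 53 genes of chromosome 13 stretched over 2219 kb, in which 2 zones had their breakpoint. Both of these breakpoints fell between blocks: the first zone separated the first block from the second, and the other ended in the third block with its breakpoint to the left of it. The intervals between neighbouring zones that held the blocks were ordinary in size for the first and the third block of chromosome 13 (592 and 398 kb) and for the block of chromosome 3 (357 kb), against a median of 508 kb over 2737 intervals. The interval of 1412 kb that held the second block, near its left end, was wider than 84.4% of them. Zones with a breakpoint within 1 Mb of a block numbered 2, 2 and 3 on chromosome 13 (0.944, 0.996 and 1.25 zones per Mb, against 1.18 on the whole chromosome) and 4 on chromosome 3 (1.95 per Mb, exact Poisson interval 0.532 to 5.00, against 1.08).

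**Figure D2:**
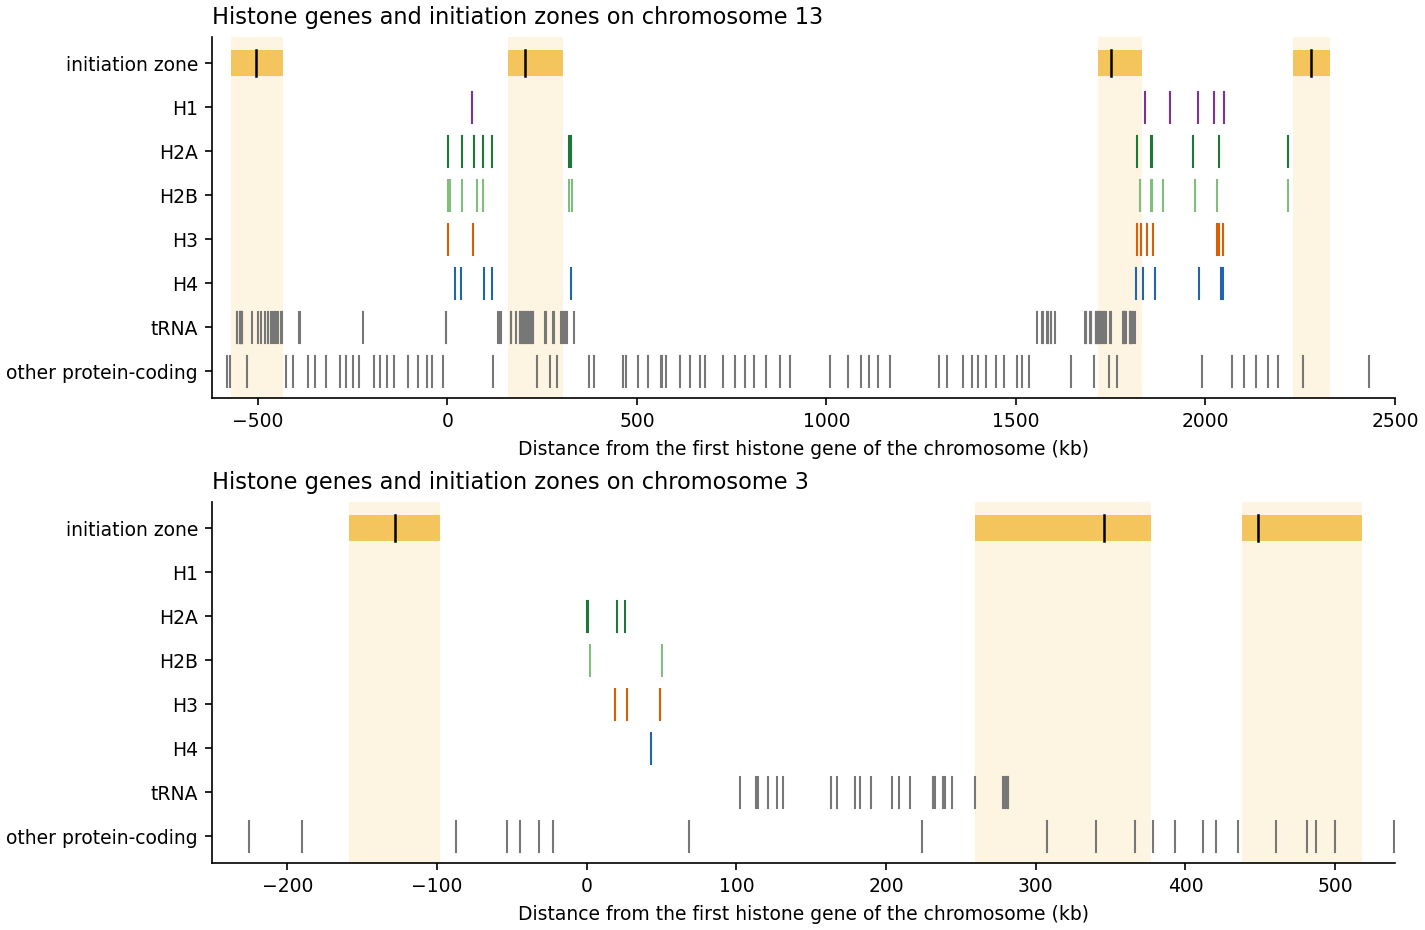
Initiation zones (yellow bars, black line at the breakpoint, pale yellow shading below), histone genes by type, tRNA genes and other protein-coding genes along chromosome 13 (upper panel) and chromosome 3 (lower panel), by distance from the first histone gene of the chromosome (kb, x axis). A zone enters the third block of chromosome 13 at its left end and the other 3 blocks lie outside zones, and of the 2219 kb from the first to the last histone gene of chromosome 13 the zones take up 2 stretches.

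The first block of chromosome 13 (21715711 to 21833475) held 17 genes: 5 of H2A, 5 of H2B, 4 of H4, 2 of H3 and the linker histone gene H1f5. All of them lay to the left of a zone from 21875001 to 22020000, at 41.5 to 159 kb from its edge. The nearest were H2ac24 at 41.5 kb and H4c18 at 42.8 kb, followed by H4c17 (62.9 kb), H2ac23 (64.1 kb), H2bc23 (64.8 kb), H2bc22 (73.4 kb), H2ac22 (87.8 kb), H3c11 (91.6 kb) and H1f5 (94.4 kb). The genes over 100 kb away were H2bc15 (120.4 kb), H2ac15 (121 kb), H4c12 (124 kb), H4c11 (139.5 kb), H2bc14 (152 kb), H3c10 (157 kb), H2ac13 (158 kb) and H2bc13 (159 kb). Between the block and the zone lay H4bc24, a protein-coding gene whose symbol is outside the rule (synonym Hist1h2br), at 37.5 kb, named after its value was seen. On the far side the block stood 433 kb from the zone to its left. All 17 genes thus lay in the right part of the interval between breakpoints, at 71.2 to 87.8% of the way from the left breakpoint to the right one.

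The second block (22035122 to 22043658) was compact, with 5 genes in 8.537 kb, and lay on the other side of the same zone. H2ac12 and H2bc12 were 15.1 and 15.8 kb from its right edge, just within the limit of 20 kb. H4c9 (21.0 kb), H2ac11 (22.5 kb) and H2bc11 (23.2 kb) were just outside it. The right arm of this zone was 100 kb long, the highest value that the list gives to any arm. Whether its edge marks the end of the zone or a limit of the list is not stated. The distances of these 5 genes to the edge rest on it. Because of this long arm, the 5 genes were 116 to 124 kb from the breakpoint, farther than H2ac24 and H4c18 on the left side (86.0 and 87.3 kb), although nearer to the edge. The zone itself held ends of 3 protein-coding genes, the zinc finger gene Zfp184 at 25.6 kb from the breakpoint, Pom121l2 at 61.7 kb and Prss16, which encodes a thymus-specific serine protease, at 82.7 kb.

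The third block (23531044 to 23934913) was the largest, with 31 genes in 403.87 kb, and the only one that a zone entered. A zone from 23432001 to 23548000, with its breakpoint bin at 23467001 to 23468000, covered the first 16.957 kb (4.20%) of the block. In its right arm lay H4c8, H2ac10, H3c8, H2bc9 and H3c7, with ends at 63.5, 66.4, 67.9, 75.4 and 76.6 kb from the breakpoint. The genes nearest to this breakpoint were not histone genes but those of the butyrophilins Btn1a1, a protein of the milk fat globule, and Btn2a2, with ends at 1.59 and 9.55 kb. H4c6, H1f3 and H3c6 followed at 3.29, 7.03 and 13.5 kb beyond the right edge. A run of 7 genes lay just past the limit, from H2ac8 (22.7 kb), H2bc8 (23.4 kb), H2bc7 (25.8 kb), H2ac7 (26.4 kb) and H3c4 (27.8 kb) to H4c4 (33.6 kb) and H2bc6 (35.7 kb).

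The middle of the third block held the members farthest from any zone. H1f4 lay at 73.8 kb, H2ac6 at 135 kb, H2bc4 at 136 kb, H1f6, the testis linker histone gene, at 148 kb and H4c3 at 150.1 kb. Around the midpoint between the zones were H1f2 (191 kb), H3c3 (197 kb), H2bc3 (199 kb), H2ac4 (194 kb), H3c2 (193 kb), H4c2 (189 kb), H4c1 (185 kb), H3c1 (184 kb) and H1f1 (182 kb). These 9 genes stood at 51.6 to 56.3% of the 527 kb between the breakpoints on both sides. Hfe, the iron regulator changed in haemochromatosis, shares this part of the block and was 154 kb from a zone. At the right end, after a gap of 169312 bases without a histone gene that holds Trim38 and 4 genes of the Slc17a transporter family, came the testis-specific genes H2bc1 and H2ac1. They were 11.8 and 11.1 kb from the left edge of the next zone (23946001 to 24044000), whose breakpoint lay 3.17 kb from an end of Scgn, the gene of the calcium-binding protein secretagogin. With blocks divided at gaps over 100 kb, this pair formed a block of its own.

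The 10 genes of chromosome 3 (96219885 to 96270192) were all far from a zone. The nearest zone, to the left (96061001 to 96122000), was 60 kb wide, narrower than all but 4.32% of the 2844 zones, and held an end of Otud7b, a deubiquitinase gene. From its edge H2ac21, H2ac20 and H2bc21 were 97.9, 98.4 and 99.1 kb away. H3c15 (116 kb), H2ac19 (118 kb), H2ac18 (123 kb), H3c14 (125 kb), H4c14 (141 kb), H3c13 (147 kb) and H2bc18 (148 kb) followed. The zone on the other side (96479001 to 96597000) began 209 kb after the last gene, and its breakpoint lay 3.64 kb from an end of Txnip, the gene of a thioredoxin-binding protein.

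The single linker histone genes differed widely. H1f0, whose product is the replacement linker histone of differentiated cells, was the only single gene inside a zone (chromosome 15, 79027001 to 79158000). It lay wholly in its left arm, 27.0 kb from the breakpoint, and shared the zone with 8 other protein-coding genes. Nearer to the breakpoint were Ankrd54 (4.41 kb), the galanin receptor gene Galr3 (13.9 kb), Gcat (15.0 kb) and the translation initiation factor gene Eif3l (17.7 kb). The other single genes were all outside. H1f10, which encodes the linker histone H1X, lay 37.5 kb from the zone to its right and 77.4 kb from the zone to its left. H1f7, a gene of spermatids, was 45.0 kb and H1f8, the linker histone gene of the oocyte, 143 kb from the nearest edge.

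**Figure D3:**
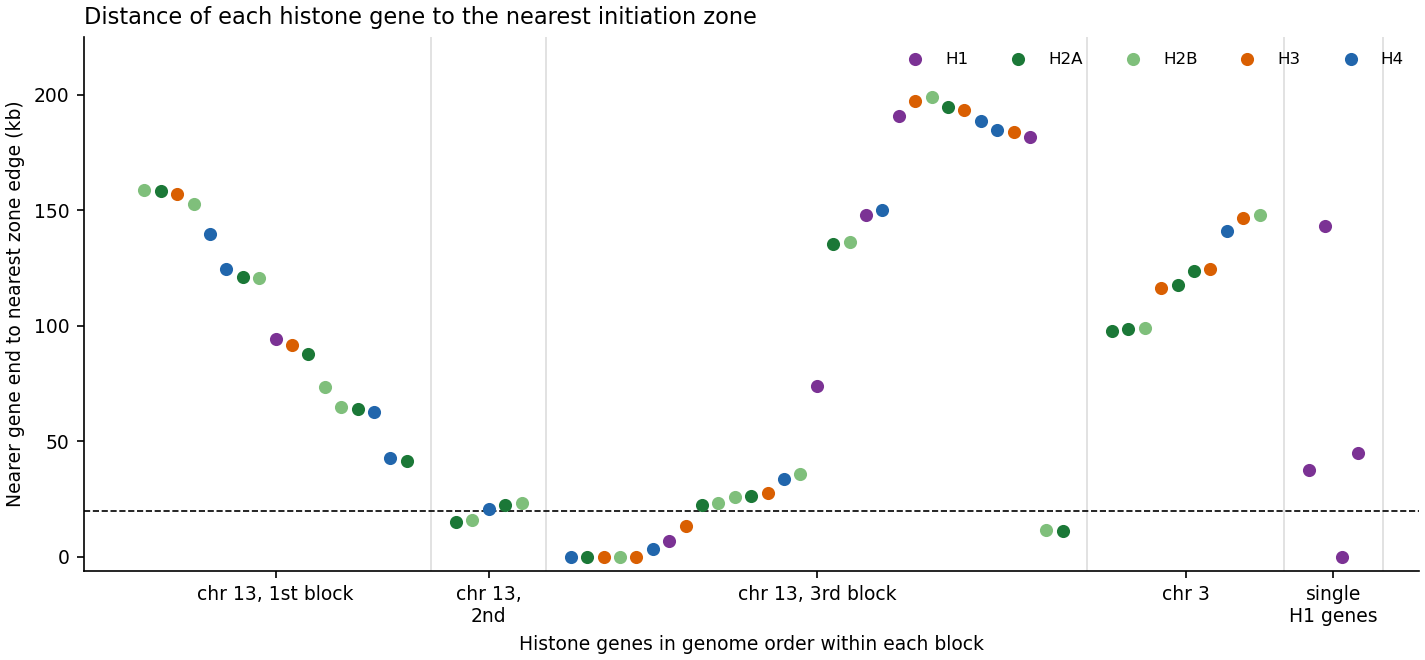
Distance (kb, y axis) from the nearer end of each of the 67 histone genes to the nearest zone edge, in genome order within the 3 blocks of chromosome 13, the block of chromosome 3 and the 4 single genes, with 1 point per gene coloured by histone type. The 6 points at 0 are the genes with an end inside a zone, and the dashed line marks 20 kb, the limit that 13 genes met.

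All 5 histone types were represented on both sides of the 20 kb limit. Within it lay 2 of 10 H1 genes (20%), 3 of 17 H2A genes (17.6%), 3 of 16 H2B genes (18.8%), 3 of 12 H3 genes (25%) and 2 of 12 H4 genes (16.7%). Of all protein-coding genes, 38.5% did. Each type had at least 1 gene inside a zone: H1f0, H2ac10, H2bc9, H4c8 and, for H3, both H3c8 and H3c7. The median distances to a zone edge were 84.1 kb for H1, 87.8 kb for H2A, 69.1 kb for H2B, 121 kb for H3 and 93.6 kb for H4. Over all members the median was 91.6 kb, against 71.2 kb for all protein-coding genes. With gene midpoints these were 91.8 and 93.3 kb. With zones narrower than the median left out they were 121 and 254 kb, so the order depended on the setting. Over 100 kb from any zone lay 7 of the 12 H3 genes and 6 of the 12 H4 genes, against 6 of 17 for H2A, 6 of 16 for H2B and 4 of 10 for H1. The share of all protein-coding genes was 44.1%. The types share blocks, so these counts are not independent of each other, and no difference between types was tested.

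Direction of transcription could be read for 62 of the 67 members, those with a promoter in the RefSeq table of GRCm38.p6. Of the 5 such genes inside a zone, 3 were transcribed away from its breakpoint, namely H4c8, H2ac10 and H3c8, while H2bc9 and H1f0 were transcribed towards it. Among all protein-coding genes with an end in a zone, a strand in that table and no breakpoint in the body, 59.7% of 4742 were transcribed away (58.3 to 61.1%). Measured against the nearest breakpoint, in or out of a zone, 29 of the 62 histone genes (46.8%, 34.9 to 59.0%) pointed away from it. Of the 15829 protein-coding genes with a strand and no breakpoint in the body, 52.5% did. H2A and H2B genes were often arranged head to head, so that the members of a pair point in opposite directions. Of 59 pairs of neighbouring members, 9 were found head to head with at most 1000 bases between their starts. All 9 joined an H2A with an H2B gene, 164 to 281 bases apart. Pairs that include any of the 5 members without a strand could not be judged, among them H2ac6 with H2bc4, 239 bases apart. The head-to-head pairs nearest to a zone were H2bc1 with H2ac1 and H2ac12 with H2bc12.

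The 250 bases before the transcription start are given here for 7 genes, so that a histone gene inside a zone can be read beside the gene of the same type farthest from one. They are H4c8 (chr13:23530794-23531043, plus strand) and H4c2 (chr13:23756687-23756936, plus strand) for H4, H2bc9 (chr13:23543445-23543694, minus strand) and H2bc3 (chr13:23746484-23746733, plus strand) for H2B, H3c8 (chr13:23535168-23535417, plus strand) and H3c3 (chr13:23745522-23745771, minus strand) for H3, and H1f0 (chr15:79027962-79028211, plus strand) for the single linker gene inside a zone. The sequences are those of RefSeq on GRCm38.p6, 5′ to 3′ in the direction of transcription. Capitals mark, on either strand, the TATA box letters TATAAA, the NF-Y letters CCAAT, the octamer ATTTGCAT and the letters GGTCC of the H4 promoter element. The E-box letters CACGTG were searched too and occur in none of the 7.
H4c8: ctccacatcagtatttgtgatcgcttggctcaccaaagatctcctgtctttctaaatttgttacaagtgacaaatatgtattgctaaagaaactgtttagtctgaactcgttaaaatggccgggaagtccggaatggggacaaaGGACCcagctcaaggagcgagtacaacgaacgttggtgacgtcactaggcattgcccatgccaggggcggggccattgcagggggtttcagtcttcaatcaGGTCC
H4c2: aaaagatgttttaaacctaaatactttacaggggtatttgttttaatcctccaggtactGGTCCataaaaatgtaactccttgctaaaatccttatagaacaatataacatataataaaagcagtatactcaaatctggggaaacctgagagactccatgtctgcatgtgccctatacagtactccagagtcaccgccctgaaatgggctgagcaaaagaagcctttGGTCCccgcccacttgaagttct
H2bc9: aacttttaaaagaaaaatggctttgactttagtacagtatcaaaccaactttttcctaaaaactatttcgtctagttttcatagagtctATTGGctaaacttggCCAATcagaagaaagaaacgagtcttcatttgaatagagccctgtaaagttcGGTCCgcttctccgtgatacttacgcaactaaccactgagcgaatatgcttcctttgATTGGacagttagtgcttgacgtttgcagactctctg
H2bc3: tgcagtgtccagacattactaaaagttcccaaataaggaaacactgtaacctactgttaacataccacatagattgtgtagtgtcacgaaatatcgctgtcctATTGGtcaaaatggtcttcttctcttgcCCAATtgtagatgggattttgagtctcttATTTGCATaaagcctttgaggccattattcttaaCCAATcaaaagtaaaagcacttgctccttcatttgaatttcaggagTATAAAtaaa
H3c8: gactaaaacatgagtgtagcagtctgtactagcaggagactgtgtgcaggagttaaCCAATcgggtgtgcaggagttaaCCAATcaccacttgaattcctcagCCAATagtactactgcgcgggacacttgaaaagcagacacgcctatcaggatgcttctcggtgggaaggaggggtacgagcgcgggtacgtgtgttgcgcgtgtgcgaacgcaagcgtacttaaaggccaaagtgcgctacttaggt
H3c3: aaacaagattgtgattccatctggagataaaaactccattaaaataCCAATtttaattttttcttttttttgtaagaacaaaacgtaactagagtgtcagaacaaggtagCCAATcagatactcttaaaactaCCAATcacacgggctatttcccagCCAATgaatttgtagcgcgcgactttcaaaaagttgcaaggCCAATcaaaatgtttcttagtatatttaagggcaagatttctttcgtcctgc
H1f0: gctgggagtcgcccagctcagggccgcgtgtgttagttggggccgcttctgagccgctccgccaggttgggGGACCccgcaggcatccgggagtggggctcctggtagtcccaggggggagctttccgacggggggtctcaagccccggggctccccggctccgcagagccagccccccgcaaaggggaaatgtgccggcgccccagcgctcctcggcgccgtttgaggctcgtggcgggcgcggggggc

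Each motif but CACGTG was found in histone genes near to zones and far from them, and no difference between histone types was tested. Motifs were counted in windows from 250 bases before to 50 after the start, on both strands and separately even where matches overlap, for 63 windows of the 62 genes and 32851 windows of the whole table. CCAAT, bound by NF-Y, was present in all 17 H2A, all 15 H2B and all 10 H3 windows, in 7 of 10 for H1 and in 3 of 11 for H4, against 37.4% of all promoters. GGTCC, part of the H4 promoter element bound by HINFP, was present in 10 of 11 H4 windows, 4 of 10 H1, 5 of 17 H2A, 5 of 15 H2B and 4 of 10 H3 windows. Over all histone windows this was 44.4%, near the 45.5% of all promoters. The octamer, bound by the POU factor OCT1, occurred in 7 of 15 H2B windows and 6 of 17 H2A windows, against 1.74% of all. In the 100 bases before the start it was left in 6 H2B windows and in 0 H2A windows. It occurred in 0 of 10 H1, 0 of 10 H3 and 0 of 11 H4 windows. Windows of genes that stand head to head share bases, so the H2A and H2B counts are not independent. TATAAA was present in 34 of the 63 windows (54.0%), against 13.6% of all, with 4 of 10 for H1, 11 of 17 for H2A, 7 of 15 for H2B, 4 of 10 for H3 and 8 of 11 for H4. CACGTG was present in 0 of 63, against 7.15%. Of the windows of genes within 20 kb of a zone, 9 of 12 held CCAAT, 4 held the octamer and 6 held TATAAA. Of those farther away, 43 of 51 held CCAAT, 9 held the octamer and 28 held TATAAA. A match of letters is a description and not a sign of binding.

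A larger share of the variant histone genes than of the clustered ones lay near zones, a difference that was not tested. The variant genes were longer, with a median of 2.44 kb against 0.496 kb. Of 13 variant and other histone genes not covered by the symbol rule and found on chromosomes 1 to 19, 6 reached into a zone (46.2%) and 7 came within 20 kb of one (53.8%, 29.1 to 76.8%), against 32.4 and 38.5% of all protein-coding genes, the latter inside the interval. The nearest to a breakpoint were Cenpa, the centromeric H3 gene (8.66 kb), Macroh2a1 (23.9 kb) and H3f3b, a gene of the variant H3.3 (24.5 kb). H2az1, H2bl1 and H2ax also had an end in a zone, and H2az2 lay 6.23 kb from one. H3f3a, the other H3.3 gene, was 27.4 kb away. The farthest was Macroh2a2, at 244 kb. The remaining 4 genes were also over 200 kb away, namely H4f16 and H2aj on chromosome 6, at 226 and 230.2 kb from a zone, and H2aw and H2bu2 of the small chromosome 11 cluster, at 214 and 219.6 kb. Hils1, a spermatid linker histone gene elsewhere on chromosome 11 and also named after its value was seen, was 21.5 kb away. H3f4 of the small cluster, named after its value was seen, was 207 kb from a zone, so all 3 genes of that cluster were over 200 kb away.

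Of 35 genes that serve histone gene expression, 15 reached into a zone (42.9%) and 19 came within 20 kb of one (54.3%, 38.2 to 69.5%), against 32.4 and 38.5% of all protein-coding genes. The 38.5% lay inside the interval, close to its lower end. The nearest to a breakpoint were Cdk2 (4.45 kb), whose kinase phosphorylates NPAT, Cstf2t (8.91 kb), a factor of 3′ end formation, and Casp8ap2 (8.97 kb), which encodes the histone locus body protein FLASH. Npat and Slbp themselves, named after their values were seen, lay outside the zones at 81.4 and 34.1 kb. Eri1, the exonuclease gene of histone mRNA decay, was the farthest, at 422 kb. Whether the nearness of these lists differs from that of the clustered histone genes was not tested.

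**Figure D4:**
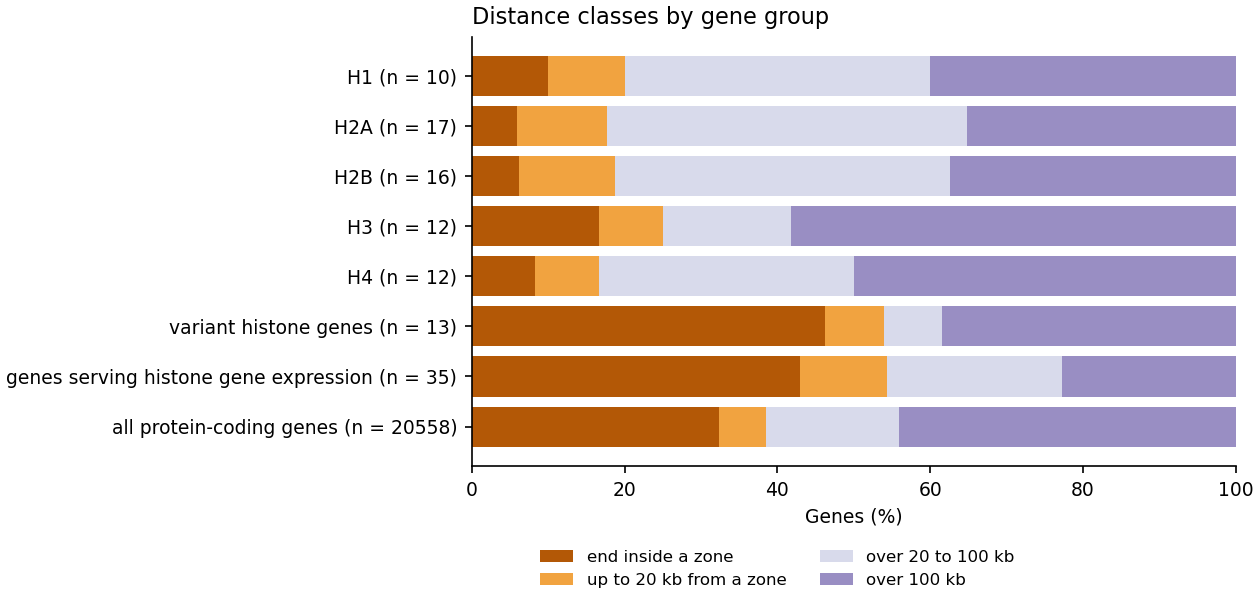
Share of genes (%, x axis) in 4 classes of distance to the nearest zone, for the 5 histone types, the variant histone genes, the genes serving histone gene expression and all protein-coding genes, with the number of genes in brackets. An end inside a zone was found in 5.88 to 16.7% of the genes of each histone type, in 46.2% of the variant genes and in 32.4% of all protein-coding genes.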

How the data were processed

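The 1 file used was the list of initiation zones of the wild-type OK-seq library. Per the submitters' processing notes the build was mm10 and the tools included Picard 2.8.2, SAMtools, Bowtie, BWA 0.7.13 and Trim Galore 0.4.2, with no roles given. For the zone caller, its thresholds and reads that match several near-identical histone copies, nothing is stated in the labels. The values the authors deposited are distances in bp, per the file headers: breakpoint to left edge, to right edge, their difference (the size, which matched in all 2844 entries) and to the nearest other breakpoint.

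Gene positions came from RefSeq on GRCm38.p6, the same assembly as mm10, without genes on scaffolds. Strand and promoters came from the RefSeq promoter table, which matched 62 of 67 members (not H2bc21, H4c14, H3c7, H2bc4 and H3c1). The distance of a gene ran from its nearer end to the nearest zone edge (0 inside) or to the middle of the nearest breakpoint bin. Shares have Wilson 95% intervals and densities exact Poisson intervals. Members and lists were chosen with earlier results of these data known. All members could be named; of the other lists, the 3 genes nearest to a breakpoint and the farthest, and further genes after their values were seen. There was no test, since 1 library has no replicate. Alternatives were merged zones, wide zones, midpoints, transcription starts, other limits, splits and windows. Python 3.11.15, pandas 2.3.3, NumPy 2.4.6 and SciPy 1.17.1 were used, and the distance functions were tested on simulated data. Protein sequences were not used here.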

Additional observations from a re-analysis of the deposited data

How the results depend on the processing

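Of 117 values under alternatives, 95 stayed within the counting interval of the value reported, or equal to it where there is no interval, and 22 moved. Merging zones less than 10 kb apart, gene midpoints and transcription starts moved none of them. At a limit of 5 kb the share of histone genes near a zone was 10.4%, that of the second chromosome 13 block 0%, of H2A 5.88% and of H2B 6.25%. At 50 kb they were 40.3, 100, 41.2 and 43.8%, and the third block had 54.8%. With zones narrower than the median left out, the median distance to a breakpoint was 166 kb (all protein-coding genes 323 kb), and the genes serving histone expression had 31.4% near (all protein-coding genes 23.4%). With each location counted once by its nearest gene, added after the data were seen, 37.5% were near. Blocks split at 500 kb joined the first and second block of chromosome 13, with 9.09% near. Spans widened by 20 kb were covered by zones to 10.1% in the second and 10.3% in the third block. Between breakpoints instead of edges the intervals around the blocks were 708, 1548, 527 and 474 kb. In the 100 bases before the start, TATAAA was present in 28.6%, the octamer in 9.52% and GGTCC in 30.2% of histone windows. Counting genes of identical protein once, and the number of distinct proteins, were not run, since protein sequences were not used here. No paired analysis was possible because 1 library was analysed and nothing was compared between groups. The depth behind each zone is unknown.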

Other observations

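Genes of tRNAs lay among the histone blocks but in none of them. Between the first and the last histone gene of chromosome 13 there were 77 tRNA genes, and none lay within the span of a block. Zones held 48 of these, and 63 (81.8%) were at most 20 kb from a zone, against 46.4% of the 386 tRNA genes on all chromosomes. The zone between the first and second block held 23 tRNA genes, and the zone that enters the third block held 25, while its neighbour beside H2bc1 and H2ac1 held 0. A further 22 lay in the zone to the left of the first block (21144001 to 21283000), whose breakpoint was 16.8 kb from an end of Trim27. On chromosome 3, 19 tRNA genes lay between the histone block and the zone to its right, 2 of them within 20 kb of that zone, and 6 lay inside the zone.

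Between the second and the third block of chromosome 13 lie 35 vomeronasal receptor genes, of which 0 lay within 20 kb of a zone, with a median of 334 kb. Of all protein-coding genes, 38.5% lay within 20 kb, with a median of 71.2 kb. Over the stretch from the first to the last histone gene, 51 protein-coding genes other than the members were annotated. Of these, 5 had an end inside a zone and 6 (11.8%) lay within 20 kb of one, against 38.5% of all protein-coding genes and 19.4% of the members. The 51 genes include the 35 vomeronasal receptor genes and H4bc24, so their low share is mostly that of the receptor genes. All 6 near genes were among the rest, namely Zfp184, Pom121l2, Prss16, Abt1, Btn1a1 and Btn2a2. Whether the low share is particular to the histone genes of this stretch was not tested.

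Among the promoters of the members, H4c17 and H4c18, which lie in the first block, were the most alike, with 99.0% of 300 bases the same, and H3c14 and H3c15 of chromosome 3 followed at 89.7%. For the median member the closest match was 53.3%. These windows were the only part of the histone genes whose sequence was compared.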
